A study of Prunus dulcis and Prunus persica with 12 samples.

Results

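The chromosome 5 run described here is a stretch of consecutive gene models of the almond (*Prunus dulcis*) cv. Texas in which no gene had allele-specific counts. It goes from TexasF0_G18832 to TexasF0_G19042, which are 211 gene numbers. Of these numbers, 207 have a row in the gene count table, and these 207 gene models (0.709% of 29183) are the members. Members were chosen by their absence from the table of allele-specific counts and with their expression levels known, so neither is a finding. RNA-seq counts were available from 3 libraries of flowers collected at pink stage and 3 libraries of immature fruits. All of them are from cv. Texas grown in the field with normal watering, without any other treatment. The labels give them as separate samples of each organ, and the design text calls the replicates biological without naming trees, so p-values measure the spread between these libraries. The series also has 6 peach libraries, which were not analysed here. The tables also hold leaf columns, which belong to none of the listed samples and were left out.

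Almond trees are highly heterozygous, and the copies of a gene can carry different bases at some positions, though not in every gene. A sequencing read can be assigned to a parental copy (P0 or P1, the phases of the Texas genome) only if it covers such a position. The authors counted reads of each copy at coding SNPs (single-base differences) between both phases that had no insertion or deletion within 50 bp. A gene without an informative SNP can therefore be well expressed and still be missing from the allele table. RNA-seq gives the sum of both copies for such a gene. At pink stage the closed flower bud shows its petals and holds the male and female organs, while the immature fruit holds the growing hull, shell and seed. In these whole organs, fewer cells of a type and less RNA per cell cannot be told apart.

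The libraries held between 49635915 and 54926220 reads on gene models in flower and between 40130120 and 46999320 in fruit. Fruit replicate 3 stood apart for genes with few reads in fruit. It had at least 30 reads where the other fruit libraries had under 10 for 195 gene models outside the run, against 6 to 21 gene models for each of the other 5 libraries. The same was found for 5 of the 207 members of the run, a larger share than the 0.673% of gene models outside it. No member showed it in any other library. Identifiers of the gene models matched no entry of the RefSeq gene table, so members are given by identifier and have no known function here. For the same reason the organs could not be checked against marker genes.

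The files give no coordinates for the members. In the allele table, 2271 identifiers contain the name of a chromosome, and 172 of them name chromosome 5. Their gene numbers go from 17288 to 19887, and no identifier of another chromosome lies between them. The run therefore falls within the numbers of chromosome 5. The nearest genes with a chromosome name are TexasF0_G18827 before it and TexasF0_G19045 after it. Both had reads of the 2 alleles. Summed over the 3 flower libraries, P0 had 302 and P1 had 267 reads in TexasF0_G18827, against 253 and 219 in TexasF0_G19045. The numbers right beside the run are also in the allele table. TexasF0_G18831, just before it, had a single allele-specific read in flower and fruit together, from P1. TexasF0_G19043, just after it, had 314 P0 reads and 242 P1 reads over the flower libraries, and 572 and 580 over the fruit libraries. The left edge of the run thus lies beside a gene that was almost not expressed, and the right edge beside a gene with reads of both alleles.

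Long stretches without allele-specific counts were rare. Between neighbouring genes of the allele table, 91.1% of the 6181 gaps had 10 gene numbers or fewer, and the mean gap was 3.87. In 22 gaps there were at least 100 numbers. The chromosome 5 run was shorter than only 2 of them, with 355 and 236 numbers. Among the 22 it had the highest share of gene models with at least 10 reads in each of the 6 libraries, with 161 of 207 (77.8%). As the run was chosen with its levels known, its rank is a description and not a finding. Close to it were a gap of 109 numbers with 77.1% and a gap of 170 numbers with 77.0%, while the gap of 236 numbers had 24.8%. By the median over gene models of the mean CPM (the usual count relative to library size, here scaled with TMM factors, which correct for differences in composition), the run was second of the 22, with 16.2 against 20.8 in the gap of 109 numbers.

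**Figure D1:**
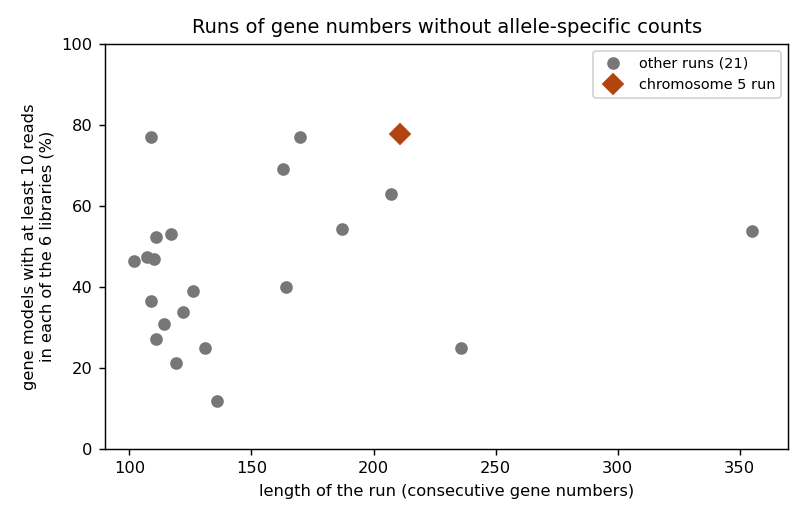
Each point is a gap of at least 100 gene numbers between neighbouring genes of the allele table. The x axis gives its length in gene numbers and the y axis the percentage of its gene models with at least 10 reads in each of the 6 libraries. The chromosome 5 run (diamond) lies at 211 numbers and 77.8%, above the other 21 gaps.

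Most members of the chromosome 5 run were expressed in both organs. At least 10 reads in each of the 6 libraries were found for 161 members (77.8%), against 17182 of the 28976 other gene models (59.3%) and 1394 of the 2299 other gene models within the numbers of chromosome 5 (60.6%). Of the 6182 gene models with allele-specific counts, 82.4% were expressed in this sense. The paper gives these as genes with informative SNPs and detectable expression, so their high share is partly set by that choice. No read was counted in any library for 14 members (6.76%), against 17.6% of the other gene models. A count of 0 allows up to 3 reads, or 0.0548 to 0.0745 CPM depending on the library. Another 16 members (7.73%, against 5.82% of the other gene models) had at least 10 reads in each flower library but not in each fruit library. The opposite pattern was found in 2 members (0.966% against 2.33%), and 14 members had some reads but reached this limit in neither organ (6.76% against 15.0%).

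Members without allele-specific counts could have high read numbers. At least 100 reads in each library were counted for 134 of 207 members, against 13724 of the 28976 other gene models. At least 1000 were counted for 48 of 207 members, against 5758 of the 28976 others. Outside the run, 30.8% of the 13724 gene models with at least 100 reads in each library were in the allele table, and 32.5% of the 5758 with at least 1000. Among the other expressed gene models of chromosome 5, 397 of 1394 (28.5%) were in it. Whether the 2 phases differ in the coding sequences of the run was not tested, as no sequence was used here.

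The median member reached 13.3 ± 0.520 CPM in flowers and 14.4 ± 1.15 CPM in fruits (mean of the library medians ± SD, n = 3). All other gene models had a median of 3.96 ± 0.05 CPM in flowers and 3.40 ± 0.182 in fruit. Counts are not divided by gene length, so levels of different genes include their lengths. The gene models with allele-specific counts had medians of 15.4 ± 0.2 CPM in flower and 14.9 ± 0.458 in fruit, above the run in flower and within the spread between libraries of it in fruit. The other gene models without such counts had only 1.85 ± 0.0451 and 1.3 ± 0.1 CPM. By the level of its median gene, the run was nearer to the genes of the allele table than to those outside it. This is a description only, as the allele table holds genes with detectable expression and the run was chosen with its levels known. In flower the upper quartile of the run was below that of the genes of the allele table, at 30.6 ± 1.14 CPM against 49.7 ± 0.289. In fruit it was 34.1 ± 0.961 against 42.9 ± 0.839.

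The expressed members were much closer to the other expressed gene models. Among gene models with at least 10 reads in each library, the median was 19.1 ± 0.361 CPM for members and 18.2 ± 0.2 for all others in flower, and 21.4 ± 0.551 against 19.7 ± 0.173 in fruit. Of the members, 66.2% had a mean CPM above the median of all other gene models, 30.4% were above their upper quartile, 12.6% above their 90th percentile and 0.966% (2 members) above their 99th percentile. In the deposited regularized log values the members were also above the other gene models, but in fruit they were slightly above the genes with allele-specific counts, and the other gene models had the higher median in fruit. The 194 members in that matrix had a median of 8.89 ± 0.0512 in flower and 9.0 ± 0.0724 in fruit, the other gene models 8.02 ± 0.0121 and 8.07 ± 0.00659, and the genes with allele-specific counts had 8.93 ± 0.00289 and 8.93 ± 0.0249 (log2 scale, mean of the library medians ± SD, n = 3).

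**Figure D2:**
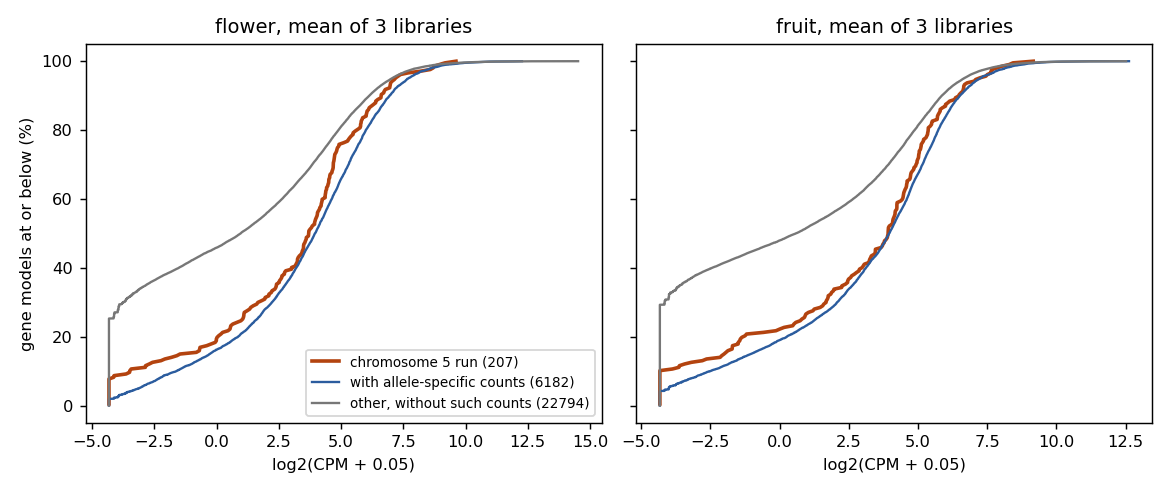
Cumulative distribution of expression in flower (left) and fruit (right). The x axis is log2(CPM + 0.05) of the mean of 3 libraries and the y axis the percentage of gene models at or below this level, for the 207 members, the 6182 gene models with allele-specific counts and the 22794 others. Around the median the curve of the run lies near that of the genes with allele-specific counts, while it has more genes at 0 and a lower upper quartile than these.

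The whole run took 0.722% ± 0.0289 of all reads of the flower libraries and 0.843% ± 0.0726 of those of fruit (SD, n = 3), with 0.692 to 0.750% over the flower libraries and 0.763 to 0.904% over the fruit libraries. The organs did not overlap on this scale of library totals. Dividing by the TMM factors (0.812 to 0.879 in flower, 1.11 to 1.29 in fruit) puts the sum of the run higher in flower. Which organ is higher for the whole run thus depends on the scaling. The members make up 0.709% of the gene models. On library totals, their share of the reads was close to this in flower and above it in each fruit library. Mean CPM on this scale was 34.9 for the run against 34.3 for all others in flower, and 40.7 against 34.2 in fruit. By this sum the run was near the average gene model in flower and above it in fruit. Its median gene was above that of the genome in both organs. The 10 members with the highest mean CPM over the 6 libraries took 43.8 to 45.1% of the run's reads in the flower libraries. In the fruit libraries they took 33.8 to 37.1%. This set was the same for both organs and was not the top 10 of either. The same share was not computed for other gene models, so the run is not shown to be more concentrated. Without the 5 most abundant members, the rest of the run (0.692% of gene models) took 0.494% of flower reads and 0.663% of fruit reads. The most abundant of the other gene models were not taken out for this.

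Expression changed from gene to gene along the run. The longest stretch of neighbouring members with at least 10 reads in each library had 23 members, from TexasF0_G18851 to TexasF0_G18873. Stretches below this limit had at most 4 members, a length found 3 times (TexasF0_G18891 to TexasF0_G18894, TexasF0_G18931 to TexasF0_G18934, and TexasF0_G19038 to TexasF0_G19041). Cut in 5 pieces of nearly equal length, the run had between 26 of 41 expressed members (TexasF0_G18917 to TexasF0_G18958) and 38 of 43 (TexasF0_G18832 to TexasF0_G18874). The first piece held 29.3% of the reads of the run and the last piece 13.3% (mean of 6 libraries). Silent members were spread over 4 of the 5 pieces, with 5 of the 14 in the last piece and none in the fourth.

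**Figure D3:**
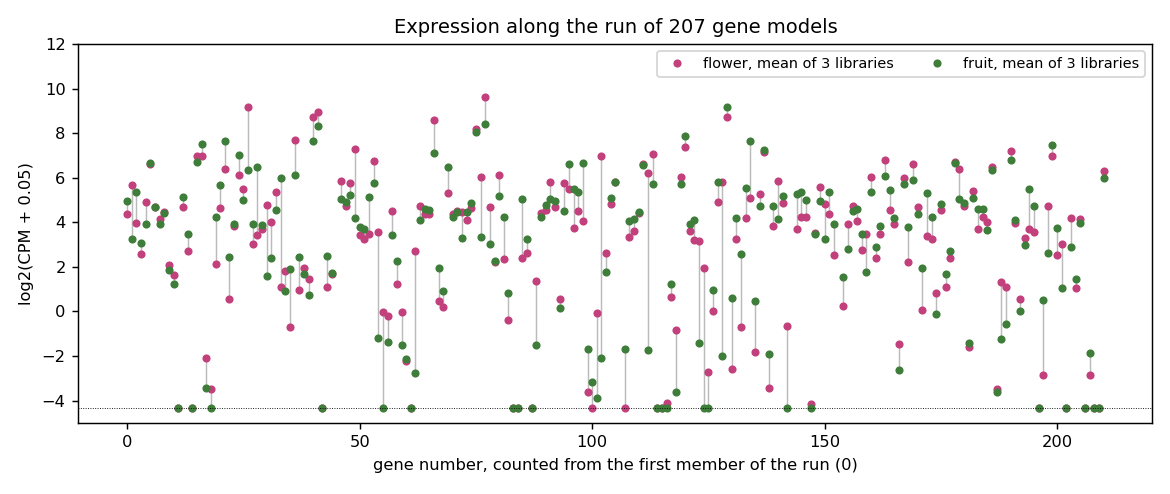
Expression of each member by its gene number, counted from the first member (0). The y axis is log2(CPM + 0.05) of the mean of 3 flower or 3 fruit libraries, grey lines join both organs of a member, and the dotted line marks 0 reads. Members of high and low expression lie beside each other in all parts of the run, and the 14 silent members lie on the dotted line, none of them between TexasF0_G18959 and TexasF0_G19000.

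The most abundant member was TexasF0_G18909. It had 32520, 39782, and 31666 reads in flower replicates 1 to 3 and 14822, 14000, and 23869 in fruit, or 785 ± 40.0 CPM in flower and 345 ± 80.0 in fruit (SD, n = 3). Flower was higher in each library, with a log2 fold change of 1.19 ± 0.221 (SE, edgeR adjusted p = 0.00274). Its neighbour at a distance of 2 numbers, TexasF0_G18907, had 8894, 16661, and 13200 reads in flower and 13360, 8066, and 19045 in fruit. The organs overlapped, and the difference did not pass the test (log2 fold change of 0.16, edgeR adjusted p = 0.680).

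The second most abundant member, TexasF0_G18961, had 18349, 20444, and 16365 reads in flower and 32491, 19852, and 35617 in fruit. In CPM the fruit libraries were above the flower libraries, at 574 ± 111 against 417 ± 9.14 (SD, n = 3). The spread between fruit libraries was large, and the log2 fold change of -0.46 did not pass the threshold (edgeR adjusted p = 0.0902). It passed with upper-quartile factors (-0.61, adjusted p = 0.0319) and without fruit replicate 2 (adjusted p = 0.0182).

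Other abundant members with more reads in flower were a pair of neighbours, TexasF0_G18872 and TexasF0_G18873. TexasF0_G18872 had 18745, 19509, and 17753 reads in flower and 10655, 7939, and 11900 in fruit, with a log2 fold change of 1.08 ± 0.169 (SE, edgeR adjusted p = 0.00113). TexasF0_G18873 had 22386, 22939, and 19830 reads in flower and 17631, 13923, and 15980 in fruit, with a log2 fold change of 0.65 ± 0.168 (SE, edgeR adjusted p = 0.0124). Both were thus higher in every flower library, though TexasF0_G18873 lost its call without flower replicate 1 (adjusted p = 0.0595) or flower replicate 3 (adjusted p = 0.0515). TexasF0_G18858 differed most among the 10 most abundant members. It had 27945, 28477, and 20230 reads in flower and 4776, 3137, and 4357 in fruit, a log2 fold change of 2.84 ± 0.202 (SE, edgeR adjusted p = 2.35e-05). TexasF0_G18898 had 17274, 18797, and 14670 reads in flower and 9571, 4662, and 6490 in fruit, a log2 fold change of 1.5 (edgeR adjusted p = 0.00134).

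The remaining 3 of the 10 most abundant members had higher means in fruit but did not pass the test. TexasF0_G18952 averaged 167 CPM in flower and 233 in fruit, TexasF0_G18848 had 127 ± 10.9 and 182 ± 50.7, and TexasF0_G19031 had 126 ± 0.854 and 175 ± 42.4 (SD, n = 3, edgeR adjusted p = 0.0834, 0.0858, and 0.0728). Each of them passed with upper-quartile factors (adjusted p between 0.0274 and 0.0330) and without fruit replicate 1 (adjusted p between 0.00851 and 0.0405). TexasF0_G19031, in which the organs did not overlap, also passed without fruit replicate 3 (adjusted p = 0.0443).

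To know how expression of the run differs between organs, flower was compared with fruit over all genes. Of the 207 members, 181 passed the expression filter, and the other 26 were the 14 without reads and 12 with few reads or with reads in few libraries. The highest count in any library for these 12 was 213, for TexasF0_G18962 in fruit replicate 3. With the quasi-likelihood test of edgeR and p-values adjusted after Benjamini and Hochberg, 47 members (26.0% of 181) were higher in flower, 48 (26.5%) were higher in fruit, and 86 were not called. Of all 19917 tested genes, 27.6% were higher in flower, 28.0% higher in fruit, and 55.6% were called in either direction. The members' 52.5% was near this background. With at least a 2-fold change, 34 members were higher in flower and 33 in fruit, together 37.0%, against 38.6% of all tested genes. The median log2 fold change was -0.07 over the members and -0.06 over all tested genes, and the median of its absolute value was 0.89 and 0.81. Calls in both directions were thus nearly equal in number in the run, as in all tested genes.

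**Figure D4:**
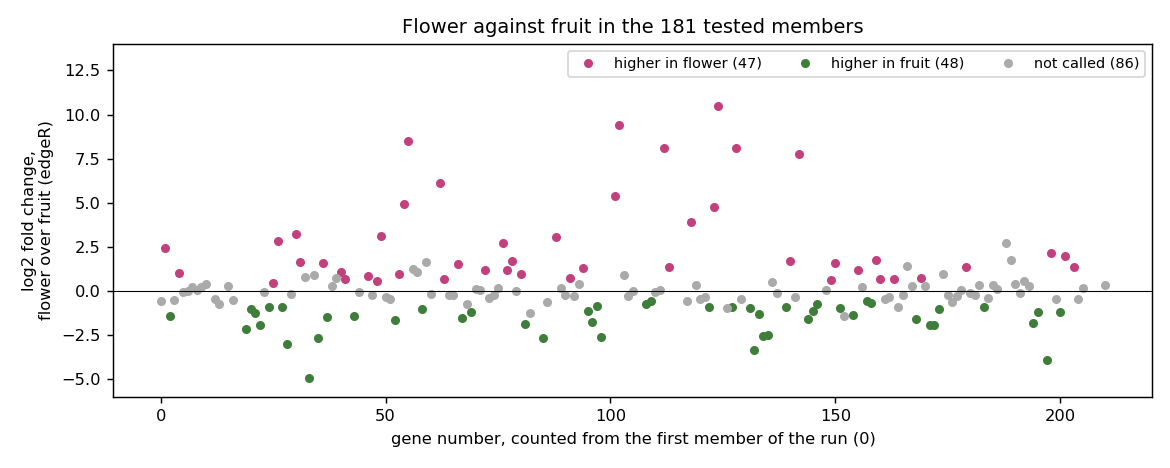
Log2 fold change of flower over fruit from edgeR (y axis) for the 181 tested members by gene number, counted from the first member (x axis). Colours give the 47 members higher in flower, the 48 higher in fruit and the 86 not called. Both directions occur along the whole run, and the largest values are those of flower, where fruit has few or no reads.

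In 114 of the tested members (63.0%) the CPM of flower and fruit libraries did not overlap, against 65.9% of all tested genes. This included 93 of the 95 called members. The exceptions were TexasF0_G18963 and TexasF0_G18978, both called higher in fruit. Among the members not called, 21 were without overlap and 65 overlapped. Replicates of the expressed members had a median coefficient of variation of 9.77% in flower and 22.4% in fruit, and those of all other expressed gene models 10.9% and 22.1%. Fruit libraries were the more variable ones in the run and outside it.

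The largest differences were found in members that were read in flower and nearly absent in fruit. TexasF0_G18956 had 185, 217, and 104 reads in flower and 0 in each fruit library. Since a count of 0 allows up to 3 reads in each fruit library, its mean level was at least 62.9-fold higher in flower (edgeR adjusted p = 0.000138). This limit and those that follow use the mean of the flower libraries and leave out the spread between them. TexasF0_G18887 had 39, 48, and 38 reads in flower and 0 in fruit (at least 15.7-fold higher, edgeR adjusted p = 0.000608). TexasF0_G18974 had 19, 20, and 36 reads in flower and 0 in fruit (at least 9.69-fold higher, edgeR adjusted p = 0.00229). These 3 are the only members with reads in each flower library and none in fruit, and no member had the opposite pattern. They are 1.45% of the members, against 2.76% of the other gene models, of which 0.411% had the opposite pattern.

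Other members of this kind were expressed at a much higher level in flower. TexasF0_G18934 had 5798, 4379, and 6068 reads in flower and 13, 12, and 2 in fruit, with 125 ± 30.7 CPM in flower and 0.185 ± 0.129 in fruit (SD, n = 3). Its log2 fold change was 9.41 ± 0.524 (SE, edgeR adjusted p = 1.05e-05). TexasF0_G18960 had 2612, 2001, and 2695 reads in flower and 11, 5, and 15 in fruit, a log2 fold change of 8.09 ± 0.359 (SE, edgeR adjusted p = 5.21e-06). TexasF0_G18944 had 3084, 4140, and 2681 reads in flower and 4, 3, and 34 in fruit, a log2 fold change of 8.12 ± 0.686 (SE, edgeR adjusted p = 5.36e-05). The fruit reads of TexasF0_G18944 came mostly from replicate 3. At least an 8-fold change was called for 14 members higher in flower (7.73% of those tested, against 9.09% of all genes) and for 4 members higher in fruit (2.21% against 3.25%).

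Members with higher expression in fruit kept some reads in flower. TexasF0_G18865 had 92, 140, and 51 reads in flower and 2220, 1743, and 5982 in fruit, a log2 fold change of -4.92 ± 0.522 (SE, edgeR adjusted p = 0.000162). TexasF0_G18860 had 372, 520, and 534 reads in flower and 4042, 4164, and 5082 in fruit, a log2 fold change of -3.02 ± 0.203 (SE, edgeR adjusted p = 1.81e-05). TexasF0_G18917 had 227, 242, and 211 reads in flower and 1244, 1806, and 1887 in fruit, a log2 fold change of -2.68 (edgeR adjusted p = 5.57e-05). In all of them every fruit library was above every flower library. TexasF0_G19029 was low in both organs, with 3, 7, and 2 reads in flower and 24, 43, and 149 in fruit (log2 fold change -3.92 ± 0.831, SE, edgeR adjusted p = 0.00503). TexasF0_G18867 had 44, 13, and 18 reads in flower and 174, 274, and 76 in fruit (log2 fold change -2.65 ± 0.681, SE, edgeR adjusted p = 0.0119). The spread of these 2 members between libraries was wide, but the organs did not overlap.

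Neighbouring members could go in the same direction. The longest stretch of neighbours called in the same direction had 5 members higher in fruit, from TexasF0_G18963 to TexasF0_G18967. Their log2 fold changes were -0.96, -3.37, -1.32, -2.56, and -2.49 in the order of their numbers. The most abundant of them, TexasF0_G18966, had 1358, 1721, and 1464 reads in flower and 12507, 9990, and 7815 in fruit (standard error 0.230, edgeR adjusted p = 7.21e-05). TexasF0_G18965 had 706, 859, and 850 reads in flower and 2654, 1998, and 2276 in fruit. TexasF0_G18964 had 22, 22, and 30 reads in flower and 278, 268, and 344 in fruit, and TexasF0_G18967 had 8, 18, and 6 in flower and 75, 75, and 49 in fruit. The organs were thus separated in these 4 members, while they overlapped in TexasF0_G18963, with 500, 362, and 364 reads in flower and 850, 504, and 1462 in fruit. Its call (edgeR adjusted p = 0.0385) was lost without any of the flower replicates (adjusted p between 0.0535 and 0.128) or without fruit replicate 3 (adjusted p = 0.0898). Stretches of 4 neighbours higher in fruit were found from TexasF0_G18851 to TexasF0_G18854 (log2 fold changes of -2.15, -1.05, -1.25, and -1.95) and from TexasF0_G18927 to TexasF0_G18930 (-1.14, -1.75, -0.85, and -2.59). Over the whole run, 50 pairs of direct neighbours were both called, and 32 of them (64.0%) in the same direction, against 59.0% of the 5063 such pairs elsewhere.

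**Figure D5:**
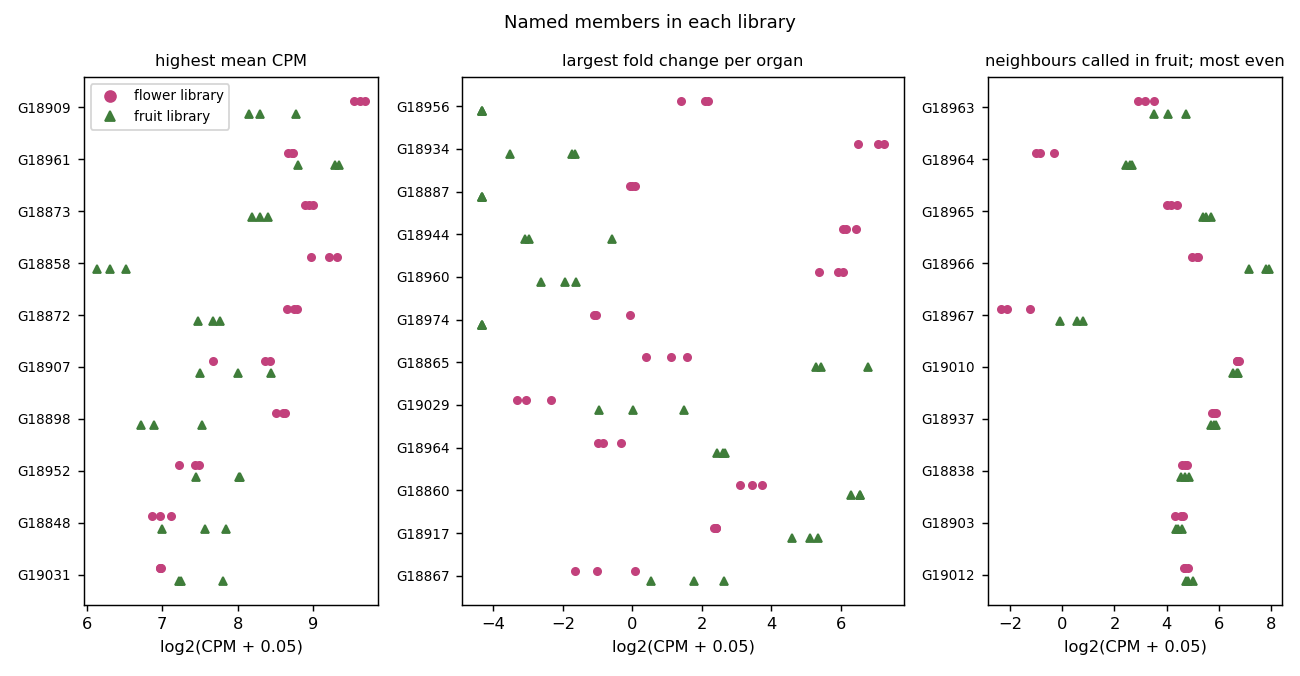
Values of the named members in each library on the scale of log2(CPM + 0.05), with circles for the 3 flower libraries and triangles for the 3 fruit libraries. Panels show the 10 members with the highest mean CPM (left), the 6 with the largest change in each direction (centre) and, at the right, the 5 neighbours called higher in fruit above the 5 most even members. Labels leave out the prefix TexasF0. Members of the centre panel were selected for separated organs and the most even ones for a low variation over the 6 libraries. Among the 10 members at the left, TexasF0_G18909 has the highest flower values and TexasF0_G18858 the widest gap between organs.

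Some members had nearly the same level in both organs. The most even ones, by the coefficient of variation of CPM over the 6 libraries, were TexasF0_G19010 and TexasF0_G18937 (both 5.93%), TexasF0_G18838 (8.53%), TexasF0_G18903 (8.79%) and TexasF0_G19012 (9.10%). TexasF0_G19010 had 105 ± 4.04 CPM in flower and 101 ± 7.94 in fruit, and TexasF0_G18937 had 55.8 ± 3.62 and 55.8 ± 3.78 (SD, n = 3). Their log2 fold changes were 0.06 (standard error 0.139) and 0.00 (standard error 0.132). The organs overlapped in all 5 of them. At the ends of the run, the first member, TexasF0_G18832, had 20.6 ± 1.70 CPM in flower and 30.5 ± 8.39 in fruit, and the last member, TexasF0_G19042, had 78.9 ± 3.0 and 63.8 ± 2.14 (SD, n = 3). Neither passed the test (edgeR adjusted p = 0.0600 and 0.0699).

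Without fruit replicate 3, 9 members gained a call of higher in flower and 5 of higher in fruit, and 2 lost a call in fruit. Of these members, 3 had under 10 reads in each of the other fruit libraries. TexasF0_G19020 had 98, 103, and 121 reads in flower and 4, 0, and 57 in fruit, and TexasF0_G19021, beside it, had 64, 112, and 103 in flower and 3, 2, and 96 in fruit. Neither was called with all libraries (edgeR adjusted p = 0.0798 and 0.228), and both were higher in flower without fruit replicate 3 (log2 fold changes of 5.82 and 5.28, edgeR adjusted p = 0.000305 and 0.000143). TexasF0_G18914 had 27, 32, and 34 reads in flower and 9, 4, and 265 in fruit. Its log2 fold change was -1.27 with all libraries (adjusted p = 0.418) and 2.39 without fruit replicate 3 (edgeR adjusted p = 0.0125). These 3 members were chosen after their values were seen. Without fruit replicate 3, 56 members (30.9%) were higher in flower and 51 (28.2%) in fruit, against 29.2% and 27.6% of all genes tested in that fit.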

How the data were processed

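Expression was measured by RNA-seq in flowers and immature fruits of almond cv. Texas (3 libraries each, TruSeq stranded mRNA, paired-end). The authors used Bowtie2 and RSEM to quantify the gene models. Their deposited table holds estimated counts as whole numbers, which were taken without change. For the alleles, the authors aligned reads on the P0 phase (Hisat2) and obtained counts of P0 and P1 at coding SNPs by GATK ASEReadCounter. The deposited log2 values are regularized log values of DESeq2, made by the authors over all columns of the table. Versions are not given in the sources used here. The tables hold 18 columns of leaf values that match no sample and were not used. The regularized log table of the alleles was not used.

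Counts were normalized by TMM, filtered with filterByExpr and tested over all genes with edgeR 4.0.16 in R 4.3.3 (flower against fruit, no block), with Benjamini-Hochberg adjustment and a threshold of 0.05. Standard errors were obtained from the F statistic. Levels of gene groups are descriptions without a test. CPM values use TMM factors, which were 0.812 to 0.879 in flower and 1.11 to 1.29 in fruit. Replicates differed by more than the sampling noise (chi-square divided by its degrees of freedom between 43.9 and 194). Limits from a count of 0 cover counting error only.

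Named members were the 10 with the highest mean CPM, the 6 with the largest change in each direction among called members (at least 10 reads in each library of the higher organ, no overlap), the 5 with the lowest coefficient of variation over the 6 libraries, the longest stretch of neighbours called in the same direction, and both ends of the run. Members and rules were chosen with earlier results of these data known. No sequence or position of the members was used. Alternatives covered the scaling, the tool (DESeq2 1.42.0), the filter, a fold threshold, the replicate number as a block and leaving out each library.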

Additional observations from a re-analysis of the deposited data

How the results depend on the processing

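The counts of members called stayed within 1.5 times their value under all alternatives. Members higher in flower were 53 with DESeq2, 52 with DESeq2 size factors in edgeR, 44 with upper-quartile factors and 40 to 56 when leaving out each library. Members higher in fruit were 49, 45, 62 and 37 to 53 in the same order. With DESeq2, 26.6% of all tested genes were higher in flower and 23.0% in fruit (members 27.7% and 25.7%). DESeq2 size factors gave 29.3% and 26.0% (members 28.7% and 24.9%), and upper-quartile factors 24.1% and 33.1% (members 24.3% and 34.3%). Member counts were lowest without flower replicate 3, at 40 and 37 of 184 tested. Calls over all tested genes fell there too. They were 4605 in flower and 4263 in fruit of 20257, against 5488 and 5580 of 19917 with all libraries. Upper-quartile factors moved the median log2 fold change of all tested genes from -0.06 to -0.21, and that of the members from -0.07 to -0.22. With the replicate number as a block, 51 members (28.2%) were called in flower and 45 (24.9%) in fruit, against 26.3% and 24.9% of all genes. The deviations of the same number in flower and fruit correlated at 0.0395, -0.100, and 0.0984, and those of different numbers at -0.174 to 0.146. Whether libraries of the same number share a tree cannot be told from these values. In all 12 fits, 40 members were higher in flower and 35 in fruit. How many genes outside the run kept their call through these fits was not counted. These 2 numbers thus do not show the run to be more stable than other genes. Of 363 fits of the 33 named members, 344 kept the direction and the side of the threshold or were uncalled in both fits, 6 lost the call and 13 gained it, and none reversed a call.

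Levels depended on the scaling. With library totals in place of TMM factors, the median member had 11.2 CPM in flower and 17.0 in fruit. All other gene models had 3.34 and 4.04 CPM on this scale, so that fruit was the higher organ there and the lower one with TMM factors. Taking only members with at least 10 reads in every library gave medians of 19.1 and 21.4 CPM. Without the most abundant member the share of library totals, not scaled by TMM factors, was 0.656% in flower and 0.802% in fruit. Without the 5 most abundant it was 0.494% and 0.663%. Leaving out libraries gave medians of 13.0 to 13.5 CPM in flower and 13.8 to 15.0 in fruit, and shares of 0.709 to 0.737% and 0.813 to 0.883%. With at least 1 read in each library 173 members were expressed, and with at least 50 reads 145. The depth leaves members with few reads undecided, and genes without reads can have up to 0.0745 CPM.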
